A study of Drosophila melanogaster with 12 samples.

Results

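The machinery that makes and matures small RNAs and ribosomal RNA was followed in whole Drosophila melanogaster through 4 transcripts. They were named by their FlyBase transcript identifiers and are 4 of the 16637 transcripts on the array. FBtr0091786 is shared by Polr3K and Tcs1, FBtr0088817 by CG42516 and Pbp49, and FBtr0074991 by CG42374 and Mettl5, while FBtr0082231 belongs to sle alone. In the RefSeq gene table of assembly Release 6, Polr3K, CG42516 and CG42374 are marked as the upstream reading frame of their transcript, and Tcs1, Pbp49 and Mettl5 as the main one. A level of such a transcript cannot be assigned to either of its genes.

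RNA polymerase III transcribes the genes of transfer RNAs, of a small ribosomal RNA and of a few spliceosomal small nuclear RNAs (snRNAs). Polr3K is a small subunit of this polymerase, whose yeast counterpart takes part in RNA cleavage and termination. Tcs1 is related to yeast Sua5, which makes the activated threonylcarbamoyl group placed next to the anticodon of many transfer RNAs. Pbp49 is a subunit of the snRNA activating complex, which binds the promoter of snRNA genes read by RNA polymerase II or III. Mettl5 is a methyltransferase of the RNA in the small ribosomal subunit. The protein of sle, slender lobes, sits in the nucleolus, where ribosomal RNA is made, and is known from the development of the larval brain. The gonads and all other tissues contribute to the RNA of a whole fly, so a larger amount of one tissue and a higher level within its cells cannot be told apart here.

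The flies came from 6 populations evolved separately for 65 generations, 3 under monogamy and 3 under polygamy, all labelled with the same genetic background, IV. All were virgins aged 4 days raised on standard cornmeal medium, and no further treatment is given for any group. Each population gave 1 array of males and 1 of females, so that monogamy males, polygamy males, monogamy females and polygamy females were measured on 3 arrays each (12 in all). Levels are log2 values made with RMA by the authors, on which a step of 1 is a doubling. The value of one transcript was not set against that of another, because each has its own probes.

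A few arrays stood apart over all transcripts. Polygamy female 3 had a 5th percentile of 5.42, against 4.14 to 4.43 on the other 11 arrays, and correlated with the other females at a mean of 0.733. Monogamy male 1 had the lowest mean correlation among males (0.925), and 39 transcripts limited to females were raised in it by a median of 3.36 over the other males. In polygamy female 2, 348 transcripts limited to males were raised by a median of 1.15 over the other females. In polygamy female 3, 349 such transcripts were raised by a median of 3.02, and 767 transcripts that are low in both sexes by a median of 2.32. A transcript counted as limited with a median above 10 in one sex and below 5 on the other 5 arrays of the opposite sex. The part of these arrays in the results below was not tested beyond leaving each out. Every value of the 4 transcripts lay at least 2.64 above the 5th percentile of their array. None of the 25 marker genes of the ovary, female fat body, testis and male accessory gland was among the identifiers with a symbol (0).

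The transcript of Polr3K and Tcs1 stood at 11.82, 11.09 and 10.28 in monogamy males and at 10.23, 11.14 and 10.41 in polygamy males. It stood at 12.85, 12.47 and 12.57 in monogamy females and at 11.37, 12.18 and 10.42 in polygamy females. The monogamy females were the 3 highest of all 12 arrays and the closest to each other, whereas polygamy females 1 and 3 lay within the range of the males.

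The transcript of CG42516 and Pbp49 stood at 8.47, 9.02 and 11.26 in monogamy males and at 11.39, 9.60 and 11.18 in polygamy males. It stood at 10.20, 11.38 and 10.96 in monogamy females and at 12.89, 11.88 and 13.25 in polygamy females. The polygamy females were the 3 highest arrays, above every other, and the 3 lowest were all male.

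The transcript of CG42374 and Mettl5 stood at 12.15, 11.71 and 11.28 in monogamy males and at 11.25, 11.99 and 11.30 in polygamy males. It stood at 12.86, 12.58 and 12.61 in monogamy females and at 11.82, 12.17 and 12.21 in polygamy females. As for Polr3K and Tcs1, the monogamy females were the 3 highest arrays, but the whole span over the 12 arrays was only 1.61.

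The transcript of sle stood at 6.86, 7.60 and 10.84 in monogamy males and at 11.16, 8.16 and 11.29 in polygamy males. It stood at 7.80, 9.64 and 9.67 in monogamy females and at 13.07, 11.11 and 11.84 in polygamy females. Males of both regimes held low and high values with none between 8.16 and 10.84, and the females split by regime without overlap.

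**Figure D1:**
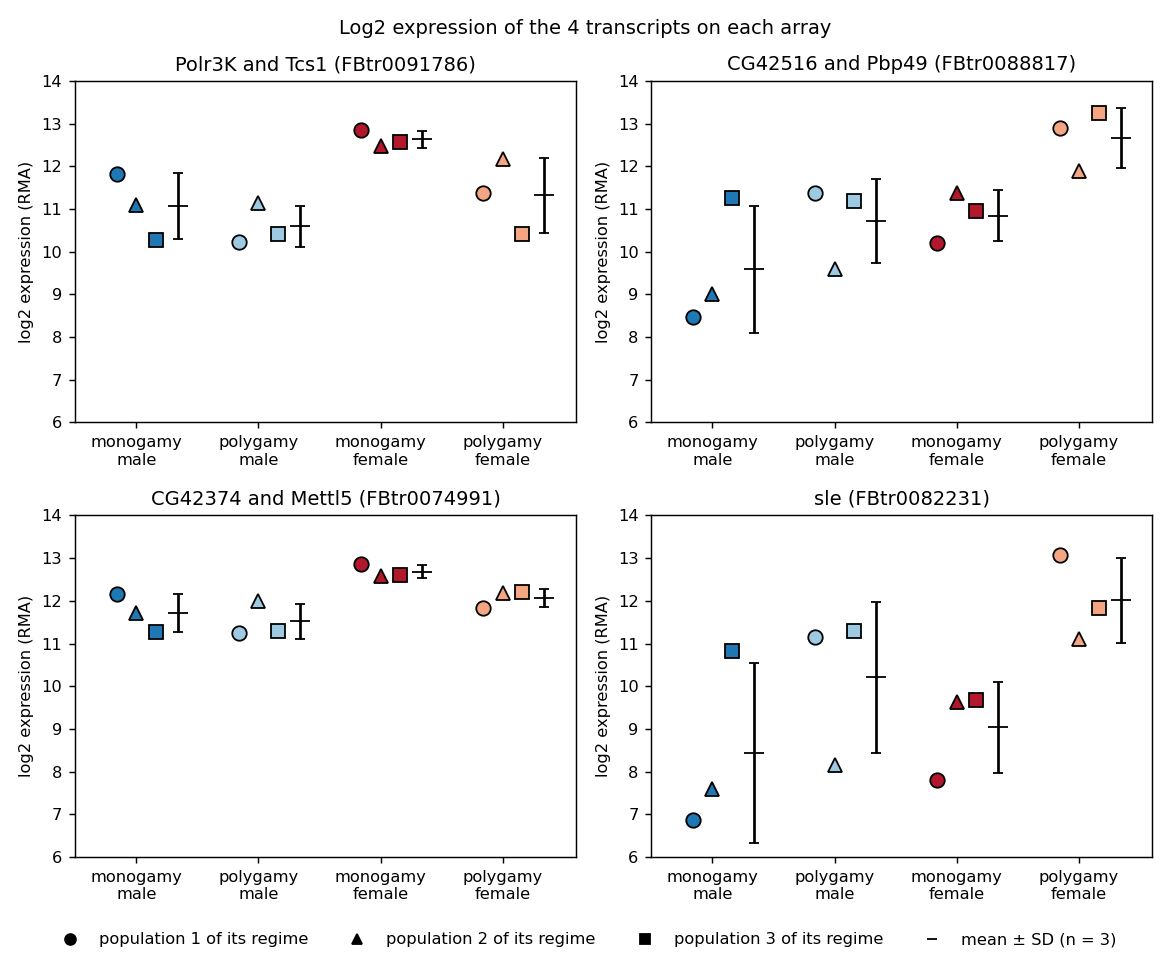
Log2 expression (y axis) of each of the 4 transcripts in the 4 groups (x axis), with 1 symbol per array, its shape giving the population number within its regime, and the mean ± SD of 3 arrays as a bar. Monogamy females are the highest group for CG42374 and Mettl5 (12.68 ± 0.15) and for Polr3K and Tcs1 (12.63 ± 0.20), and polygamy females for CG42516 and Pbp49 (12.67 ± 0.71) and for sle (12.01 ± 0.99).

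The transcripts differed in how far arrays of one group were spread. The standard deviation around the 4 group means was 1.56 for sle, larger than that of 98.1% of all transcripts. It was 1.00 for CG42516 and Pbp49 (84.8% of transcripts had less), 0.33 for CG42374 and Mettl5 (20.8%) and 0.64 for Polr3K and Tcs1 (60.2%), against a median of 0.55 over all transcripts. The same test could therefore resolve differences of CG42374 and Mettl5 that would be lost in sle.

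The first comparison asked how the sexes differ. All 4 transcripts had lower means in males, and for 2 of them the difference passed the test, which required an adjusted p under 0.05 and a log2 difference of at least 1. Over all transcripts 42.4% passed, and 26.1% did so with the higher level in females, so that 2 of 4 is near the background and is not a result about these genes. The median male minus female difference was -1.18 for the 4 and -0.34 for all transcripts, so most transcripts were lower in males too. Opposite directions cancel in the latter value. Taken without sign, the medians were 1.18 and 0.92. From 27.6% (CG42516 and Pbp49) to 57.1% (CG42374 and Mettl5) of all transcripts differed by at least as much as a transcript of the 4.

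The transcript of Polr3K and Tcs1 was lower in males, at 10.83 ± 0.63 against 11.98 ± 0.92 in females (SD, n = 6 each), a difference of -1.15 (SE 0.35, limma adjusted p = 0.0164), or 2.22 times higher in females. Without polygamy female 3 it was -1.37 (limma adjusted p = 0.00271). Without monogamy male 3 or polygamy female 2 it fell short of the required size, at -0.95 and -0.93. In each of the 6 populations the male value was below the female one, though by less than 0.01 in polygamy population 3.

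The transcript of CG42516 and Pbp49 was lower in males, at 10.16 ± 1.28 against 11.76 ± 1.16 (SD, n = 6 each), a difference of -1.60 (SE 0.52, limma adjusted p = 0.0223), or 3.04 times higher in females. The call was lost, with limma adjusted p between 0.0511 and 0.0546, when monogamy male 1, monogamy male 2, polygamy male 2 or monogamy female 2 was left out. The male was lower in 5 of 6 populations, with a difference down to -2.36, and in monogamy population 3 the male exceeded the female by 0.31.

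The transcript of CG42374 and Mettl5 averaged 11.62 ± 0.40 in males and 12.38 ± 0.38 in females (SD for 6 arrays each), a difference of -0.76 (SE 0.21, limma adjusted p = 0.0103). It was the best resolved of the 4 but stayed under the required size, and the male was lower in 6 of 6 populations. The difference of sle, -1.20 (SE 0.79, limma adjusted p = 0.216), did not pass, with a 95% confidence interval from -2.96 to 0.55. With the population as a fixed block, which pairs the sexes, it was better resolved but still did not pass (SE 0.48, limma adjusted p = 0.0731). With 1 array left out at a time the difference of sle ran from -1.81 without monogamy male 3, where it passed (limma adjusted p = 0.0447), to -0.69 without polygamy male 2. Its male was lower in 5 of 6 populations, and in monogamy population 3 the male stood 1.17 above the female. Male and female ranges overlapped for all 4 transcripts, whereas 34% of all transcripts had no overlap between the sexes.

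**Figure D2:**
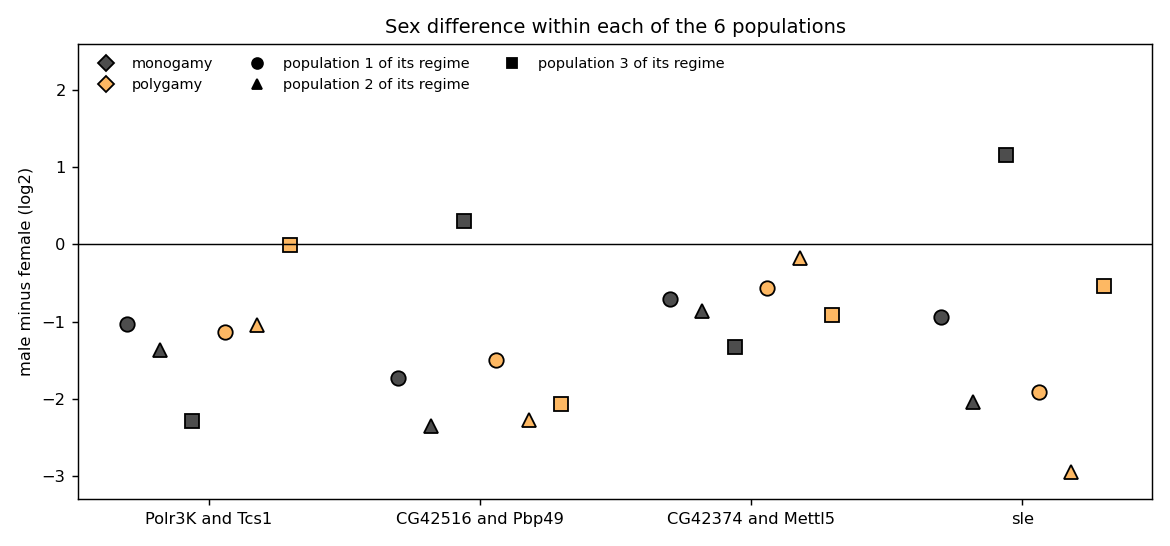
Male minus female difference in log2 expression (y axis) for each transcript (x axis), with 1 symbol per population, grey for monogamy and orange for polygamy. Points under 0 are lower in the male, which holds for 6 of 6 populations in Polr3K and Tcs1 and in CG42374 and Mettl5, and for 5 of 6 in the other transcripts, where monogamy population 3 is the exception.

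Within monogamy, the sex difference of Polr3K and Tcs1 was -1.57 (SE 0.49, limma adjusted p = 0.0275), with each male below each female. It was the only one of the 4 past the threshold, against 34.5% of all transcripts, and leaving out any monogamy array other than male 1 ended the call (limma adjusted p from 0.0574 to 0.110). CG42374 and Mettl5 also did not overlap, at -0.97 (SE 0.30, limma adjusted p = 0.0247), just under the required size. CG42516 and Pbp49 differed by -1.26 and sle by -0.61, both with overlap. Without monogamy male 3 these values were -2.10, which passed (limma adjusted p = 0.0278), and -1.81. Without monogamy male 1 they were -0.70 and 0.18. No overlap between the sexes within monogamy was found for 2 of the 4 transcripts and for 63.3% of all transcripts.

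Within polygamy, 0 of the 4 transcripts passed, 1 of them at an unadjusted p under 0.05 (limma), while 38.1% of all transcripts passed. CG42516 and Pbp49 came nearest, with each male below each female and a difference of -1.95 (SE 0.73, limma adjusted p = 0.0532), and it did pass with the population as a random replicate block (limma adjusted p = 0.0414). With 1 array left out it passed without polygamy female 2 (-2.34, limma adjusted p = 0.0392), monogamy male 1 (limma adjusted p = 0.0435) or monogamy male 3 (limma adjusted p = 0.0178). Polr3K and Tcs1 differed by -0.73, CG42374 and Mettl5 by -0.55 and sle by -1.80, each with overlap. Polr3K and Tcs1 ran from -1.18 without polygamy female 3 to -0.30 without polygamy female 2, and sle was -0.78 without polygamy male 2. No overlap was found for 1 of the 4 and for 52.8% of all transcripts. Whether a sex difference changed with the regime is answered by the interaction below, not by these separate calls.

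The second comparison asked how expression differed between flies evolved under monogamy and under polygamy, in each sex. In males no transcript passed, among the 4 or among all 16637 (0%, limma), and 220 of all transcripts but 0 of the 4 were at an unadjusted p under 0.05. Monogamy minus polygamy was 0.47 (SE 0.49) for Polr3K and Tcs1, 0.20 (SE 0.30) for CG42374 and Mettl5, -1.14 (SE 0.73) for CG42516 and Pbp49 and -1.77 (SE 1.12) for sle, each with a limma adjusted p near 1. They moved with single arrays. Without monogamy male 1 they were, in the same order, 0.088, -0.022, -0.58 and -0.99. Without monogamy male 3 the differences were 0.86 for Polr3K and Tcs1, -1.98 for CG42516 and Pbp49 and -2.98 for sle, and without polygamy male 2 that of CG42374 and Mettl5 was 0.44. The regimes overlapped in all 4, and 7.75% of all transcripts had no overlap. As large a difference as that of sle, in either direction, was seen in 0.204% of all transcripts, but its interval ran from -4.26 to 0.71.

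In females, the regimes did not overlap for any of the 4 transcripts. Each monogamy female lay above each polygamy female for CG42374 and Mettl5 and for Polr3K and Tcs1, and below each polygamy female for CG42516 and Pbp49 and for sle. No overlap was common over the array, at 38.2% of all transcripts, with 23.2% of all higher and 15% of all lower under monogamy, and none of the 4 differences passed after adjustment (0, limma), against 0.0601% of all transcripts. At an unadjusted p under 0.05 there were 3 of the 4 and 29.0% of all transcripts. The 4 values below are therefore descriptions of 3 arrays against 3.

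The regime difference in females was largest for sle, with 12.01 ± 0.99 under polygamy against 9.04 ± 1.07 under monogamy (SD, n = 3 each). The difference was -2.97 (SE 1.12, limma adjusted p = 0.135), with an interval from -5.45 to -0.49, and 0.649% of all transcripts differed by as much in either direction. Leaving out 1 array at a time gave -3.42 to -2.35. The 3 polygamy females of this nucleolar protein gene all stood above 11, and the monogamy females below 10.

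For CG42516 and Pbp49 the levels were 12.67 ± 0.71 under polygamy against 10.85 ± 0.60 under monogamy (SD, n = 3 each), a difference of -1.83 (SE 0.73, limma adjusted p = 0.146). Without polygamy female 3, which held the highest value, it was -1.54 (limma adjusted p = 0.247).

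For Polr3K and Tcs1 the levels were 11.32 ± 0.88 under polygamy against 12.63 ± 0.20 under monogamy (SD, n = 3 each), a difference of 1.31 (SE 0.49, limma adjusted p = 0.134). Polygamy female 3 held the lowest value, and without it the difference was 0.85 (limma adjusted p = 0.243). Without polygamy female 2 it was 1.74 and passed (limma adjusted p = 0.0487), in a setting where 2080 of all transcripts passed, against 10 with all arrays.

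For CG42374 and Mettl5 the levels were 12.07 ± 0.21 under polygamy against 12.68 ± 0.15 under monogamy (SD, n = 3 each), a difference of 0.62 (SE 0.30, limma adjusted p = 0.191). The values nearest across the gap were 12.58 and 12.21.

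The interaction, the regime difference in males minus that in females, was -0.84 (SE 0.70) for Polr3K and Tcs1, 0.69 (SE 1.04) for CG42516 and Pbp49, -0.42 (SE 0.42) for CG42374 and Mettl5 and 1.20 (SE 1.59) for sle. The limma adjusted p-values were 0.862 to 0.882. Without monogamy male 3 the interaction was -0.0057 for sle and -0.15 for CG42516 and Pbp49, and without monogamy male 1 it was 1.98 and 1.25. For Polr3K and Tcs1 it was -1.27 without polygamy female 2 and -0.39 without polygamy female 3. For CG42374 and Mettl5 it was -0.64 without monogamy male 1 and -0.18 without polygamy male 2. No transcript of the 4 or of all (0%) was shown to respond to the regime differently in the 2 sexes, and 593 of all but 0 of the 4 were at an unadjusted p under 0.05 (limma). The interval of sle, from -2.32 to 4.71, leaves large differences in both directions possible.

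With male and female averaged in each population, so that a population was 1 replicate, monogamy minus polygamy was -2.37 (SE 0.89) for sle, -1.48 (SE 0.57) for CG42516 and Pbp49, 0.41 (SE 0.25) for CG42374 and Mettl5 and 0.89 (SE 0.39) for Polr3K and Tcs1. None passed (0 of 4 and 0% of all, limma adjusted p from 0.318 to 0.359 for the 4), while 2 of the 4 and 2511 of all transcripts were at an unadjusted p under 0.05. As large a difference as that of sle was seen in 0.120% of all transcripts. The population means overlapped between the regimes in all 4, and 24.3% of all transcripts had no overlap.

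**Figure D3:**
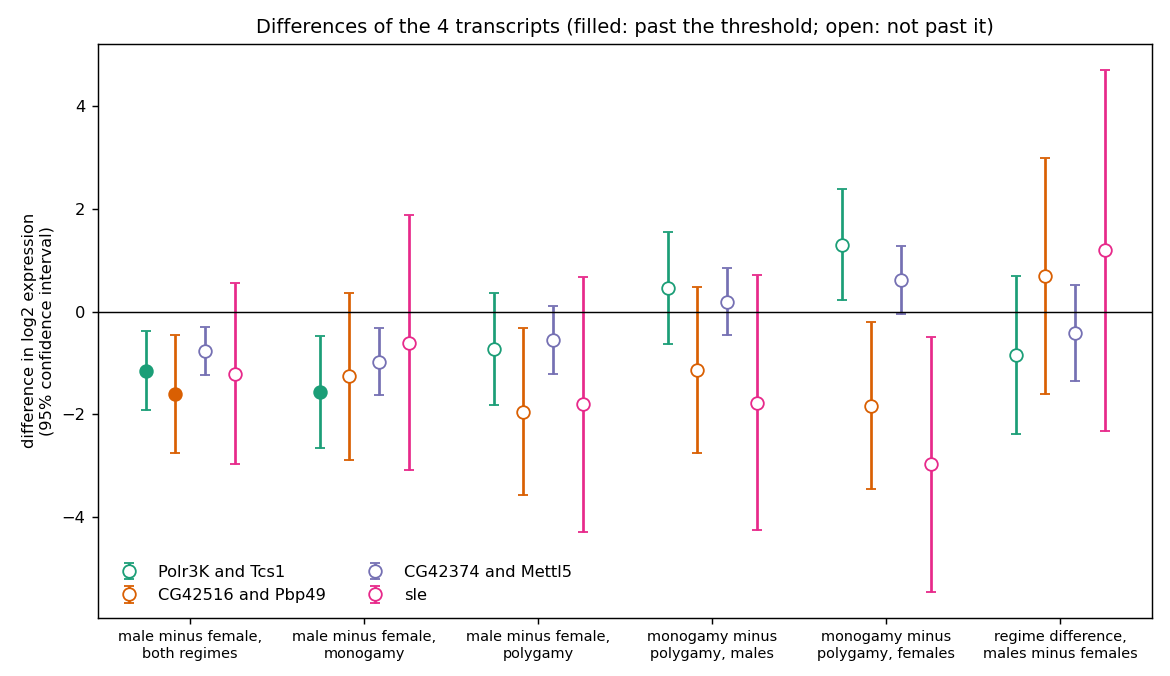
Difference in log2 expression (y axis) with its 95% confidence interval for each transcript under each comparison (x axis), from limma. Filled symbols passed the threshold, which holds for Polr3K and Tcs1 over both regimes and within monogamy and for CG42516 and Pbp49 over both regimes, and the intervals of sle are the widest in every comparison.

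The last question was whether the transcripts vary together from array to array. Their values followed a pattern of 2 against 2: sle moved with CG42516 and Pbp49, and both moved against Polr3K and Tcs1 and against CG42374 and Mettl5. In each sex the pattern holds a split of the arrays, described below. For some of the pairs, correlations as strong were common over all transcripts. In males, monogamy male 1 was the highest array for CG42374 and Mettl5 (12.15) and for Polr3K and Tcs1 (11.82), and the lowest for CG42516 and Pbp49 (8.47) and for sle (6.86). Polygamy male 1 was the lowest for the first pair of transcripts and the highest for CG42516 and Pbp49. For sle the largest gap between neighbouring males was 2.67, or 60.3% of their range, and for CG42516 and Pbp49 it was 1.58 (54.2%). Monogamy males 1 and 2 and polygamy male 2 lay on one side of both gaps and the other 3 males on the other, across the regimes. No coefficient is given in males for the 5 pairs that hold either transcript, since the males fell into separate sets. For CG42374 and Mettl5 the largest gap was 0.41 (45.2% of their range) and the next 0.28, and for Polr3K and Tcs1 both were 0.68 (the largest 42.8%). The largest gap of each parted the same sets of males, though it took a smaller share of the range. CG42374 and Mettl5 and Polr3K and Tcs1 ran in the same order over the 6 males (Pearson r = 0.97, exact permutation p = 0.00278, adjusted 0.0167, with rho = 1 at the same p, two-sided). The split into sets is part of this r and of its p. Without the 2 males farthest from the median of Polr3K and Tcs1, which left males of both sets, r was 0.95. All adjusted values for correlations are over 12 relations, 6 in each sex. Monogamy male 1 was also the male with raised transcripts limited to females, and the part of that in the pattern was not tested.

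Among the 6 females the values of each transcript split by regime, as given above. CG42516 and Pbp49 ran in exactly the reverse order of Polr3K and Tcs1 (Pearson r = -0.94, exact permutation p = 0.00278, adjusted 0.0167, with rho = -1 at the same p, two-sided). This is the smallest p that 6 arrays allow. The coefficient was 0.94 for sle with CG42516 and Pbp49 (exact permutation p = 0.0111, adjusted 0.0267, with rho = 0.89, p = 0.0333, adjusted 0.0571). It was -0.98 for sle with CG42374 and Mettl5 (exact permutation p = 0.0111, adjusted 0.0267, with rho = -0.89, p = 0.0333, adjusted 0.0571). The regime difference is part of each r and of each p in females, here and below, since the permutations cross the regimes. These p-values are therefore no test of whether the transcripts vary together within a regime.

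For the other 3 pairs of transcripts the coefficients in females were smaller in size. For CG42516 and Pbp49 with CG42374 and Mettl5, r was -0.88 (exact permutation p = 0.0194, adjusted 0.0333, with rho = -0.83, p = 0.0583, adjusted 0.07). For sle with Polr3K and Tcs1 it was -0.79 (exact permutation p = 0.05, adjusted 0.0545, with rho = -0.89, p = 0.0333, adjusted 0.0571). For Polr3K and Tcs1 with CG42374 and Mettl5 it was 0.70 (exact permutation p = 0.128, adjusted 0.128, with rho = 0.83, p = 0.0583, adjusted 0.07). With the 2 females farthest from the median of the first transcript left out, the 6 coefficients kept their signs at sizes of 0.94 to 0.99. Few arrays remained, always of both regimes, so these coefficients do not show a relation apart from the regime. For the pairs with Polr3K and Tcs1, polygamy females 1 and 3 were left out, and polygamy female 2 alone stood against the monogamy females. The coefficient of the last pair, Polr3K and Tcs1 with CG42374 and Mettl5, was 0.97 without polygamy female 3.

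To set regime and sex aside, each array was also expressed as its deviation from the mean of its group. Deviations of a group sum to 0, so the 12 values of a transcript are not independent, and no p is given. The split of the males described above crosses the regimes, so the deviations still hold it. For sle, males on the low side of the split deviated by -2.04 to -0.84, and males on the high side by 0.95 to 2.40. Female deviations of sle ran from -1.23 to 1.07. Coefficients of deviations, here and below, therefore include this split, and its part in them was not tested. The deviations correlated at 0.94 between sle and CG42516 and Pbp49, which lay on the same side of their group means on 11 of 12 arrays. The exception was polygamy female 3, where sle deviated by -0.17 and CG42516 and Pbp49 by 0.57. Sle and CG42374 and Mettl5 correlated at -0.95 and lay on opposite sides on 11 of 12 arrays, with monogamy male 2 as the exception.

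Polr3K and Tcs1 correlated at -0.88 with CG42516 and Pbp49 and lay opposite on 11 of 12 arrays. Its coefficient with sle was -0.72, and with CG42374 and Mettl5 it was 0.64. The last one was 0.97 without polygamy female 3, on which Polr3K and Tcs1 deviated by -0.91 and CG42374 and Mettl5 by 0.14. CG42516 and Pbp49 correlated at -0.86 with CG42374 and Mettl5.

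**Figure D4:**
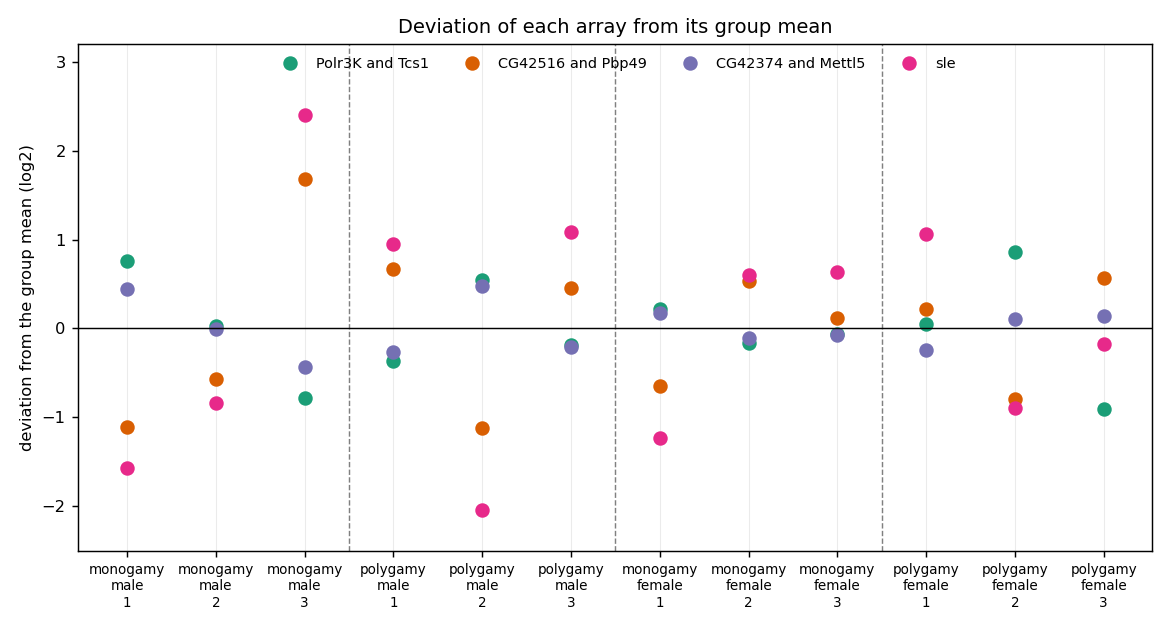
Deviation of each array (x axis) from the mean of its group in log2 units (y axis), with 1 colour per transcript and dashed lines between the groups. On monogamy male 3 sle (2.40) and CG42516 and Pbp49 (1.68) are high while Polr3K and Tcs1 (-0.79) and CG42374 and Mettl5 (-0.44) are low, and monogamy male 1 and polygamy male 2 show the reverse.

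Strong correlations of this kind were common over the whole array. With sle, 26.7% of all transcripts had a coefficient of at least 0.7 in size, and with Polr3K and Tcs1 35.2% did. A coefficient with sle as high as that of CG42516 and Pbp49 was reached by 1.74% of transcripts, and one as low as that of CG42374 and Mettl5 by 0.301%. With CG42374 and Mettl5, a coefficient as low as that of sle was reached by 1.41%, and one as low as that of CG42516 and Pbp49 by 6.43%. A coefficient with Polr3K and Tcs1 as low as that of CG42516 and Pbp49 was reached by 3.14%, and one as high as that of CG42374 and Mettl5 by 25.6%. One as low as that of sle was reached by 12.4%. All transcripts were measured on the same 12 arrays.

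**Figure D5:**
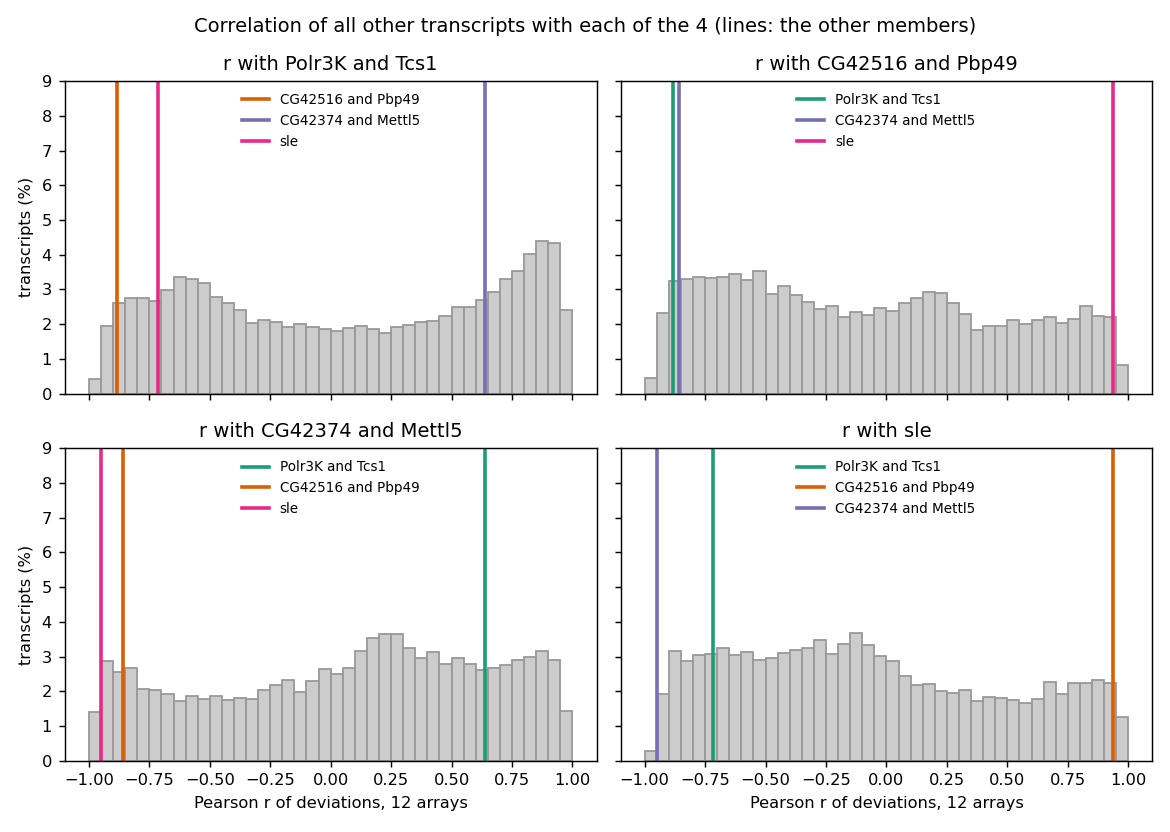
Share of all other transcripts in percent (y axis) by their Pearson r with each of the 4 transcripts (x axis), from deviations over 12 arrays, in grey, with coloured lines at the other 3. The grey bars reach both ends of the axis. The coefficient of sle with CG42374 and Mettl5, at -0.95 in the panel of each, lies nearest to an end.

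Other transcripts with a gene symbol followed the same deviations. The nearest to Polr3K and Tcs1 was HDAC3, a histone deacetylase (r = 0.96 over 12 arrays), followed by the transcripts of CG32573 and CG42512 (0.95) and of CG42488 and CG5116 (0.93). Nearest to CG42516 and Pbp49 were the transcript of CG42497 and Tim10, a mitochondrial import protein (0.93), LanA, a laminin (0.89), and SuUR, a suppressor of underreplication (0.86). Nearest to CG42374 and Mettl5 were the transcripts of Sws1 and Rad1, which acts in the DNA damage checkpoint (0.97) and of CG42455 and vnc (0.93), and His4r, a histone (0.86). Nearest to sle were SuUR (0.95), rdx, an adaptor of a ubiquitin ligase (0.90), and LanA (0.89). Only 44 identifiers have a symbol, and coefficients as high as those listed were reached by 0.649% (Rad1 and Sws1) to 6.71% (His4r) of all transcripts.

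Of 69 genes listed for RNA polymerase III, its factors, transfer RNA processing, snRNA maturation and the nucleolus, 8 were found on 7 transcripts, the 4 described and 3 more. The further genes were Tgs1, which caps snRNAs and shares its transcript with moi, Rpp14a, a subunit of the transfer RNA processing enzyme RNase P that shares with CG7950, and Tcs6, of the same transfer RNA modification as Tcs1, which shares with PIG-P. All 3 were higher in females past the threshold, so that 5 of the 7 transcripts were, next to the 26.1% of all transcripts given above. The 5 hold the calls of Polr3K and Tcs1 and of CG42516 and Pbp49, and each of the 5 transcripts is shared by 2 genes. The lists were chosen with earlier results of these data known, and most listed genes were not seen. The count is therefore no test of these genes as a group. None of the 3 passed for regime in males, where monogamy minus polygamy was -0.13 to 0.08, or in females, where it was -0.60 to 0.45 (limma adjusted p of at least 0.195). At an unadjusted p under 0.05 there were 0 of the 3 in either sex.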

How the data were processed

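Total RNA of whole flies was hybridised to 12 single-colour (Cy3) NimbleGen arrays. The authors deposited log2 values from RMA (per the submitters' processing notes) for each transcript on each array. For its version, its annotation release and the set of arrays it was run on, the sources used here give nothing. All 12 columns matched a sample, and 44 of 16637 identifiers matched a gene symbol in the RefSeq table. Arrays have no read depth, so their number limits the precision.

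The values were used without further normalization or filter. Differences were tested with limma 3.58.1 (lmFit and eBayes, R 4.3.3) in 1 fit of 4 group means over all 12 arrays, and p-values were adjusted over all transcripts by the Benjamini-Hochberg method. The fit was tested on simulated data with independent noise for each value. The deviations that transcripts share on these arrays were not simulated. Populations were separate, per the labels, and p-values measure the spread between populations and arrays together.

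The 4 transcripts and the gene lists were chosen with earlier results of these data known. Described genes were the 4, the matched genes of the lists and, for each of the 4, the 3 symbol-bearing transcripts with the highest correlation of deviations. Of 12 planned correlations within a sex, 5 in males enter the adjustment but are not printed, because the males fell into separate sets for sle and for CG42516 and Pbp49, which was judged after their values were seen. The males fell into the same sets, with gaps of a smaller share of the range, for the printed pair of transcripts. The subject label pairs the male and female array of a population. Their deviations correlated at -0.18 to 0.53 over all transcripts, and fits with the population as a block (statmod 1.5.0) were alternatives. Also tried were quantile, cyclic loess or median scaling, a floor or filter on dim values, another prior, fits of 1 sex or regime, and leaving out each array.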

Additional observations from a re-analysis of the deposited data

How the results depend on the processing

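Of 568 recomputed differences of the 4 transcripts, 540 kept their direction and their side of the threshold, 11 lost a call, 13 gained one and 4 changed sign. Many of the 568 could not change direction. The floor, the filter on dim values, the other prior, the blocks and the fits of 1 sex or regime left each difference unchanged. So did a call by adjusted p alone and leaving out an array outside the comparison. The count of 540 is therefore no measure of how stable the directions are. The sign changes came with 1 array left out, in small or wide estimates. Without monogamy male 1, the difference of sle between the sexes within monogamy was 0.18 (range with 1 array left out -1.81 to 0.18) and that of CG42374 and Mettl5 between regimes in males was -0.022 (-0.022 to 0.44). Without monogamy male 3 the interaction was -0.0057 for sle (-0.0057 to 1.98) and -0.15 for CG42516 and Pbp49 (-0.15 to 1.25). The cause was not tested. Leaving out 1 array at a time, the number of the 4 past the threshold was 1 to 2 for sex, 0 to 2 within monogamy, 0 to 1 within polygamy and 0 to 1 for regime in females. By adjusted p alone it was 2 within monogamy. Within polygamy it was 1, CG42516 and Pbp49, with dim transcripts left out, with a trended and robust prior, and with the population (limma adjusted p = 0.0414) or the replicate number (limma adjusted p = 0.0411) as a replicate block. The block changed no other call of the 4. With the population as a fixed block, the limma adjusted p for sex was 0.00995 for Polr3K and Tcs1 and 0.0099 for CG42516 and Pbp49. It was 0.0166 for CG42374 and Mettl5 and 0.0731 for sle. Deviations of arrays of 1 sex with the same number in the 2 regimes correlated at -0.77 to 0.61. Those of the male and female of 1 population, which the labels pair, ran from -0.18 to 0.53. These coefficients therefore cannot settle whether the number pairs arrays. The correlation of deviations of CG42516 and Pbp49 with CG42374 and Mettl5 was -0.63 after centring on the array median. That of sle with CG42374 and Mettl5 was -0.88 after quantile normalization and -0.85 after centring, and that of sle with CG42516 and Pbp49 was 0.83 by Spearman. The widest range with 1 array left out was 0.48 to 0.97, for Polr3K and Tcs1 with CG42374 and Mettl5. For Polr3K and Tcs1 with sle the range was -0.94 to -0.57. Over all transcripts the count past the threshold for regime in females was 10, then 1 to 15 under the other settings that keep all 12 arrays, 0 with the females fitted alone, and 1 to 2080 with 1 array left out. The number of arrays limits all of these values.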
